A study of Mus musculus with 15 samples.

Results

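miR-146a-5p, miR-146b-5p and miR-155-5p were followed in small RNA libraries from 3 mouse mammary cell lines or culture fractions of them. They are 3 of the 734 miRNA arms with reads. A read was counted for a member when its insert was 18 to 26 bases long and its first 18 bases were those of the mature arm. miR-146b-5p was among the most abundant miRNAs of TUBO tumour cells and was 30.4-fold more abundant there than in MM3MG-Her2 cells. Within the MM3MG line, the cells carrying Neu had less of both miR-146 miRNAs and more miR-155-5p than the parental cells. The exosome libraries held a form of miR-155-5p with another base, which had 0 reads in the other 12 libraries.

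The 15 libraries form 5 groups of 3. MM3MG cells are described by the submitters as normal epithelium of the BALB/c mammary gland, kept as a line, and no treatment was given. MM3MG-Her2 cells are MM3MG cells transduced with a retroviral vector, pLSXN-Neu, that carries Neu (Her2). TUBO cells are a breast cancer line grown from primary tumours of Balb-NeuT mice, so both MM3MG-Her2 and TUBO carry Neu. TUBO exosomes were isolated from the supernatant of TUBO cultures, and TUBO supernatant is what was left after that isolation. All cultures had 10% FCS (fetal calf serum). The sources used here do not say whether MM3MG-Her2 is 1 clone or a pool, which promoter drives the transgene of the mice, how old they were, or whether MM3MG cells got an empty vector. They also do not say whether replicates were separate cultures, so p-values measure only the spread between these libraries, which may be technical.

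miR-146 and miR-155 are best known from innate immunity. Toll-like and interleukin-1 receptors signal through the adaptors IRAK1 and TRAF6 to NF-kB, a transcription factor that switches on the genes of miR-146a and miR-155. miR-146a and miR-146b lower IRAK1 and TRAF6 and so damp the pathway that induces miR-146a, while miR-155 lowers the inhibitors SOCS1 and SHIP1 and prolongs inflammatory and cytokine signalling. miR-146a and miR-155 have both been studied in breast cancer, and all 3 miRNAs are abundant in white blood cells.

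The mature sequences are shown because the result for the miR-146 pair depends on the last 5 bases of the arm. They are the RefSeq sequences for GRCm38.p6, 5′ to 3′, with the seed (bases 2 to 8, which pair with targets) in capitals, and all 3 members matched an entry.
miR-146a-5p: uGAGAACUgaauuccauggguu
miR-146b-5p: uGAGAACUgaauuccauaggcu
miR-155-5p: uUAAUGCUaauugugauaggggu
The miR-146 arms share 20 of 22 bases and the same seed. Counted from 1 at the 5′ end of miR-146a-5p, they differ by G18A and U21C. miR-155-5p has another seed and shares 10 of 22 aligned bases with miR-146a-5p and 11 of 22 with miR-146b-5p.

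The 3 arms come from separate chromosomes of GRCm38.p6. miR-146a-5p lies at chr11:43374435-43374456 on the minus strand, in the Mir146 hairpin, outside other annotated genes. miR-146b-5p lies at chr19:46342790-46342811 on the plus strand, in the Mir146b hairpin, within an intron of Mfsd13a. miR-155-5p lies at chr16:84714143-84714165 on the plus strand, in the Mir155 hairpin, within an exon of the long non-coding RNA gene Mir155hg.

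Depth ranged from 196152 to 710902 reads per library, of which 59058 to 538865 were miRNA reads, and CPM below means counts scaled to 1e6 miRNA reads of a library. The supernatant was shallowest, with 59058 to 77083 miRNA reads per library, and had the most inserts of 20 bases or shorter (24.5 to 33.8%, against 9.38 to 18.3% elsewhere). The labels were checked against marker miRNAs. The 7 epithelial markers, among them the miR-200 family, summed to 24472 to 25711 CPM in TUBO cells but to 19.8 to 30.6 CPM in MM3MG cells and 11.5 to 39.7 CPM in MM3MG-Her2 cells, which goes against the epithelial label of both. The 4 stromal markers summed to 95546 to 130576 CPM in MM3MG, 61642 to 66067 CPM in MM3MG-Her2 and 46735 to 46782 CPM in TUBO cells. Most of that sum was miR-143-3p in every line, with 103558, 61343 and 46586 CPM in MM3MG, MM3MG-Her2 and TUBO cells. In the same order, miR-199a-5p had 2741, 946 and 2.49 CPM and miR-214-3p had 1354, 734 and 0 CPM.

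**Figure D1:**
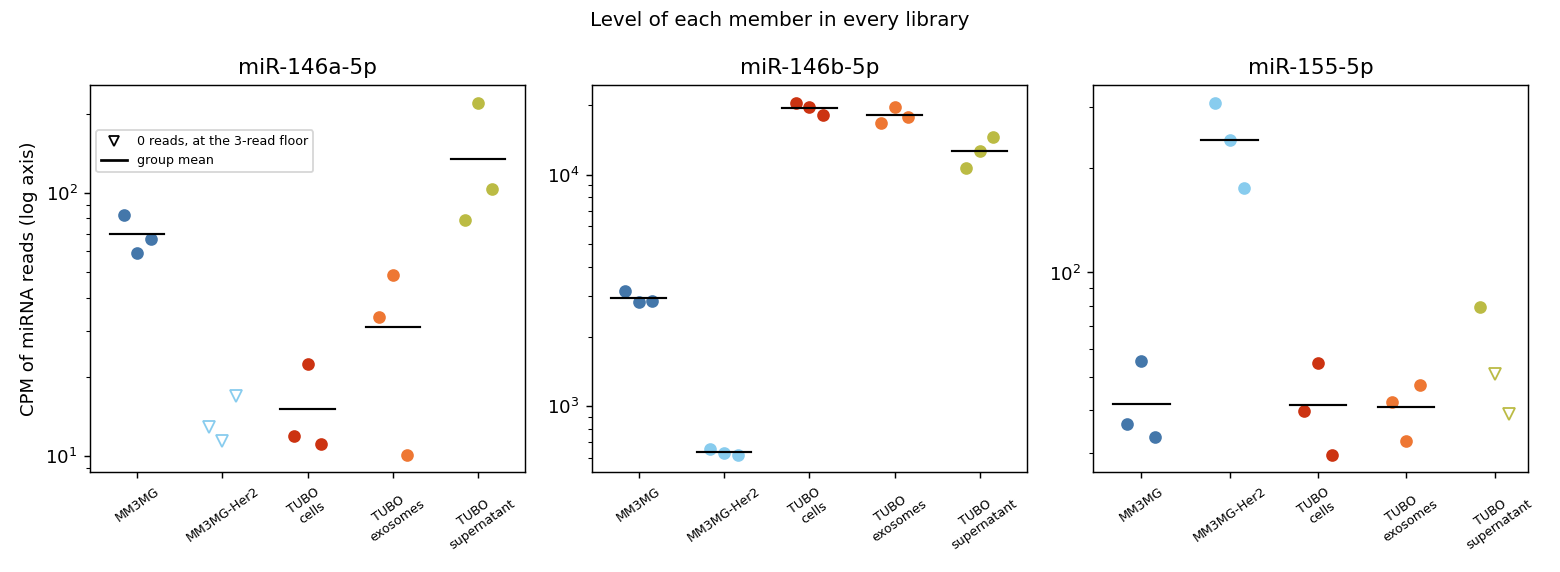
CPM of miRNA reads (log axis, a separate scale for each member) for the 3 members in all 15 libraries. Points are libraries, lines are group means where every library had reads, and open triangles mark libraries with 0 reads at the level of 3 reads. miR-146b-5p is highest in the 3 TUBO fractions, and miR-155-5p is highest in MM3MG-Her2.

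miR-146b-5p was the most abundant member in every group. In MM3MG cells it had 3165, 2820 and 2855 CPM (2947 ± 190, SD, n = 3), which ranked it 39th of 537 arms with reads. In MM3MG-Her2 cells it had 655, 628 and 618 CPM (633 ± 18.8, SD, n = 3) and ranked 74th of 462. TUBO cells had 20501, 19567 and 18034 CPM (19367 ± 1245, SD, n = 3), or 1.93% of all miRNA reads, and a rank of 15th of 482. The 3 lines did not overlap, and the order was TUBO cells, MM3MG, MM3MG-Her2. Libraries without overlap were common among all arms: 66.0% of them between MM3MG-Her2 and MM3MG, 81.7% between TUBO cells and MM3MG, and 78.6% between TUBO cells and MM3MG-Her2.

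miR-146b-5p fell by 2.24 ± 0.11 (SE) on the log2 scale in MM3MG-Her2 against MM3MG (adjusted p = 1.06e-11, edgeR); without MM3MG-Her2 replicate 3 the log2 difference was -2.86. In that comparison 60.3% of the 262 arms tested passed the threshold of 0.05, and 16.8% had a larger difference than miR-146b-5p in either direction. All 3 members passed it. In TUBO cells miR-146b-5p rose by 2.95 ± 0.11 against MM3MG (adjusted p = 1.67e-14, edgeR), where 84.7% of arms were called, and by 5.18 ± 0.12 against MM3MG-Her2 (adjusted p = 3.92e-17, edgeR), where 75.2% were called. The ratio of pooled CPM in the last comparison was 30.4, with a 95% counting interval of 27.7 to 33.6. The fitted size moved by over 1.5 times with single libraries and match rules: against MM3MG it was 2.35 without TUBO replicate 2 and 2.28 with at most 2 later differences allowed, and against MM3MG-Her2 it was 4.58 without MM3MG-Her2 replicate 2, 4.59 without TUBO replicate 2 and 4.59 with inserts of 20 to 24 bases. The TUBO line thus differed from both MM3MG lines at most miRNAs, and 33.2% of arms had a larger TUBO to MM3MG difference than miR-146b-5p. These libraries average over a culture, so fewer cells with a miRNA and less of it per cell cannot be told apart.

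miR-146a-5p, the paralog whose gene NF-kB activates directly, was rare in all 3 lines. MM3MG cells had 25, 30 and 24 reads of it, or 82.6, 59.3 and 66.8 CPM (69.6 ± 11.9, SD, n = 3). MM3MG-Her2 cells had 0 reads in each of 3 libraries, and 0 of 669803 miRNA reads allows up to 4.48 CPM over the group (3 reads, counting error only). TUBO cells had 6, 9 and 6 reads, or 11.95, 22.4 and 11.1 CPM (15.2 ± 6.29, SD, n = 3). Every MM3MG library was above every library of the other lines. The level of 3 reads in the MM3MG-Her2 libraries was 12.9, 11.5 and 17.0 CPM, which is near that of the TUBO libraries, so TUBO cells and MM3MG-Her2 could not be told apart library by library.

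miR-146a-5p was at least 15.1-fold lower in MM3MG-Her2 than in MM3MG (adjusted p = 4.07e-06, edgeR), from the 3-read floor, and the upper counting limit of the ratio was 0.0833. Its fitted difference was the lowest of the 262 arms, but the size of a fit against 0 reads has no meaning of its own. Against MM3MG it fell by 1.97 ± 0.37 (SE) on the log2 scale in TUBO cells (adjusted p = 1.19e-04, edgeR); the log2 difference was -2.88 without TUBO replicate 2 and -2.62 with at most 2 later differences allowed. TUBO cells had more of it than MM3MG-Her2 (adjusted p = 0.00133, edgeR), by 3.25-fold if the 3-read floor stands in for 0, with a lower counting limit of 2.42. TUBO cells therefore had less miR-146a-5p and more miR-146b-5p than MM3MG, while MM3MG-Her2 had less of both.

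Since 2 bases separate the paralogs, reads were checked at both, in inserts of 21 or more bases. In MM3MG, 75 inserts had the miR-146a base at both positions, 3403 had the miR-146b base at both, and 3 had the miR-146b base at position 18 with the miR-146a base at 21. In TUBO cells 14 inserts had both miR-146a bases and 7 had the miR-146a base at 18 but the miR-146b base at 21, against 27753 with both miR-146b bases. So 7 of the 21 reads counted for miR-146a-5p in TUBO cells carried a base of each paralog. When both bases were required, miR-146a-5p fell by 2.46 on the log2 scale in TUBO cells against MM3MG (adjusted p = 5.24e-05, edgeR), and TUBO cells stood 2.17-fold above the 3-read floor of MM3MG-Her2.

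The share of miR-146b-5p in the miR-146 pair was 97.5, 97.9 and 97.7% in the MM3MG libraries (97.7 ± 0.242%, SD, n = 3). It was 100% in all 3 MM3MG-Her2 libraries, on 425 reads, and 99.9 ± 0.0315% (SD, n = 3) in TUBO cells, on 27886 reads. Every MM3MG library was below every library of the other lines. With 0 of 425 reads, MM3MG-Her2 could hold a miR-146a-5p share of up to 0.706%, more than TUBO cells had, so the order of those 2 lines was not detectable at this depth. The exact two-sided permutation p was 0.1 for each of the 3 pairs of lines, with the listed values of MM3MG-Her2 at 100%, the smallest that 3 against 3 libraries allow, and 0.12 after adjustment over 6 pairs of groups.

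miR-155-5p, made from the Mir155hg transcript, showed the opposite difference to the miR-146 pair between the MM3MG lines. MM3MG cells had 11, 28 and 12 reads, or 36.3, 55.4 and 33.4 CPM (41.7 ± 11.9, SD, n = 3), and a rank of 203rd. MM3MG-Her2 cells had 72, 63 and 31 reads, or 310, 241 and 176 CPM (242 ± 67.1, SD, n = 3), and a rank of 110th. TUBO cells had 20, 22 and 16 reads, or 39.8, 54.8 and 29.7 CPM (41.4 ± 12.6, SD, n = 3). Every MM3MG-Her2 library was above every library of the other lines, and MM3MG and TUBO cells overlapped.

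miR-155-5p rose by 2.47 ± 0.28 (SE) on the log2 scale in MM3MG-Her2 against MM3MG (adjusted p = 4.27e-07, edgeR), the 8th highest of 262 arms. The ratio of pooled CPM was 5.67, with a 95% counting interval of 4.12 to 7.93. TUBO cells were lower than MM3MG-Her2 by -2.33 ± 0.27 (log2, adjusted p = 4.21e-07, edgeR), by -3.14 without TUBO replicate 2 and by -2.95 without MM3MG-Her2 replicate 2. Between TUBO cells and MM3MG the difference was 0.14 ± 0.33, with an interval of -0.51 to 0.79 (log2, adjusted p = 0.692, edgeR), so a difference smaller than these bounds could not be seen from these reads. miRNA reads were 50.1 to 54.9% of all reads in MM3MG-Her2 and 72.5 to 79.2% in MM3MG. Per 1e6 reads of all kinds, miR-155-5p had 126 ± 32.7 in MM3MG-Her2 and 32.1 ± 9.89 in MM3MG (SD, n = 3), again without overlap. How many of all arms separate on that base was not counted.

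**Figure D2:**
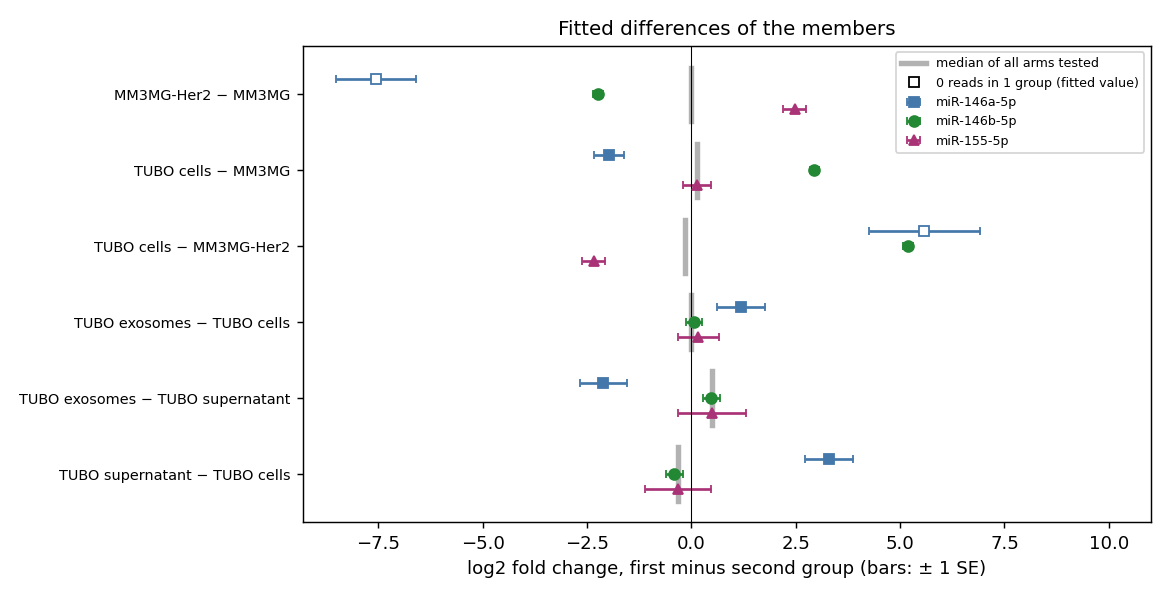
Fitted log2 fold changes of the 3 members in the 6 comparisons, first group minus second, with bars of 1 SE. Grey lines mark the median of all arms tested, and open squares mark fits against a group with 0 reads. The members move apart between the cell lines (miR-155-5p 2.47 and miR-146b-5p -2.24 in MM3MG-Her2 against MM3MG), and miR-146b-5p stays next to the grey line in the 3 comparisons of TUBO fractions.

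The TUBO fractions were compared for the level and the form of each member. The cultures had fetal calf serum, and no library came from medium without cells. Whether the exosome and supernatant reads had left TUBO cells was therefore not tested. miR-146b-5p was among the 15 most abundant arms of all 3 fractions. The exosomes had 16733, 19702 and 17731 CPM (18055 ± 1511, SD, n = 3) and a rank of 14th of 476 arms. The supernatant had 10678, 12699 and 14608 CPM (12662 ± 1965, SD, n = 3) and a rank of 15th of 336. In CPM, exosomes and cells overlapped, and every supernatant library was below both. Per 1e6 reads of all kinds miR-146b-5p had 14787 ± 1045 in cells, 10676 ± 592 in exosomes and 3829 ± 284 in supernatant (SD, n = 3), and on that base the 3 fractions did not overlap. The share of miRNA reads among all reads had the same order: 75.8 to 76.8% in cells, 57.5 to 60.8% in exosomes and 28.2 to 33.2% in supernatant. How many of all arms separate on that base was not counted.

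Between exosomes and cells the difference of miR-146b-5p was 0.06 ± 0.20, with an interval of -0.33 to 0.46 (log2, adjusted p = 0.812, edgeR), where 37.1% of 221 arms were called. Against the supernatant, exosomes were higher by 0.48 ± 0.20 (log2, adjusted p = 0.0444, edgeR), where 67.0% of arms were called. The median of all arms in that comparison was 0.49, so miR-146b-5p stood -0.01 from the median, and the call was lost under upper-quartile scaling (0.26, adjusted p = 0.403, edgeR) and with an 18-base match replaced by a 20-base one (0.02, adjusted p = 0.951, edgeR). It was also lost when any 1 exosome library was left out (0.29, 0.32 and 0.39 without replicates 1, 2 and 3), and without supernatant replicate 1 (0.05) or 2 (0.39). Supernatant against cells gave -0.41 ± 0.20 (log2, adjusted p = 0.0735, edgeR), where 72.4% of arms were called and the median was -0.32; the difference passed without supernatant replicate 3 (-0.53, adjusted p = 0.00782, edgeR).

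miR-146a-5p had more CPM in supernatant than in exosomes or cells. The exosomes had 12, 12 and 3 reads, or 33.8, 48.7 and 10.1 CPM (30.9 ± 19.5, SD, n = 3). The supernatant had 6, 13 and 8 reads, or 79.2, 220 and 104 CPM (134 ± 75.3, SD, n = 3), above every exosome and cell library. Such separation was seen for 68.3% of arms between exosomes and supernatant, for 73.3% between supernatant and cells, and for 63.3% between exosomes and cells. miR-146a-5p rose by 3.30 ± 0.58 (SE) on the log2 scale in supernatant against cells (adjusted p = 3.84e-05, edgeR) and fell by 2.11 ± 0.56 in exosomes against supernatant (adjusted p = 0.0023, edgeR). The ratio of pooled CPM of supernatant to cells was 8.75, with a counting interval of 4.77 to 16.3, on 27 and 21 reads. In inserts of 21 or more bases, 24 of these in supernatant and 14 in cells had the miR-146a base at both positions. The size of this difference depends on the base of the count, since miRNA reads were 28.2 to 33.2% of all reads in supernatant and 75.8 to 76.8% in cells. Per 1e6 reads of all kinds, miR-146a-5p had 26.3, 66.3 and 29.2 in supernatant, 20.6, 28.0 and 6.02 in exosomes and 9.18, 17.1 and 8.44 in cells. On that base supernatant stayed above the cells but overlapped with the exosomes. How many of all arms separate on that base was not counted.

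Exosomes against cells gave 1.19 ± 0.57 for miR-146a-5p (log2, adjusted p = 0.102, edgeR), and the groups overlapped through exosome replicate 3, which had 3 reads. Without that library the difference was 1.60 (adjusted p = 0.0191, edgeR). The share of miR-146b-5p in the pair was 99.8 ± 0.0991% in exosomes and 98.95 ± 0.568% in supernatant (SD, n = 3). Supernatant libraries were lower in this share than all exosome and cell libraries (exact two-sided permutation p = 0.1, adjusted 0.12), and for exosomes against cells the exact permutation p was 0.4.

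miR-155-5p did not pass the test between TUBO fractions. The exosomes had 15, 8 and 14 reads, or 42.3, 32.5 and 47.3 CPM (40.7 ± 7.54, SD, n = 3), which overlapped with the cells. The supernatant had 6 reads in replicate 1 (79.2 CPM) and 0 in replicates 2 and 3, where 3 reads would be 50.8 and 38.9 CPM. Exosomes against cells gave 0.17 ± 0.49, with an interval of -0.80 to 1.14 (log2, adjusted p = 0.802, edgeR), and supernatant against cells gave -0.32 ± 0.80 (log2, adjusted p = 0.726, edgeR). Without supernatant replicate 1, the group had 0 reads and the fit against both exosomes and cells passed the threshold (adjusted p = 0.0196 and 0.0203, edgeR), so 1 library decides that call.

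The medium held serum, and blood cell miRNAs were present in the exosome libraries. The 8 blood markers summed to 10351 to 25019 CPM in exosomes, with none at 0, to 2980 to 7382 CPM in supernatant, with 4 at 0, and to 192 to 217 CPM in TUBO cells, with 5 at 0. Most of these sums was miR-486-5p, which cannot be told from miR-3107-5p by sequence and is also made outside blood, with means of 14329 CPM in exosomes, 4385 in supernatant, 140 in TUBO cells and 1124 in MM3MG cells. miR-451a, the defining miRNA of red blood cells, had 321, 279 and 253 reads in the exosome libraries, 2 reads in supernatant and 0 in all cell libraries. miR-223-3p, of neutrophils and monocytes, had 7, 4 and 12 reads in exosomes and 0 in TUBO cells and supernatant. miR-342-3p, of the same list, differed from these, with a mean of 207 CPM for supernatant, 67.6 for exosomes and 65.4 for the TUBO line. Its exosome to cell difference was 0.21 (log2, adjusted p = 0.687, edgeR). Against supernatant, exosomes had less of it, by -1.71 (log2, adjusted p = 0.00128, edgeR), while 4 of the 5 blood markers tested there were higher in exosomes. The 2 endothelial markers miR-126a-3p and miR-126a-5p summed to 144 to 280 CPM in exosomes and to 0 in TUBO cells and supernatant. miR-122-5p, of liver, had 75.8 CPM in supernatant, 32.7 in exosomes and 5.34 in TUBO cells. The members are known from white blood cells. What part of their exosome and supernatant levels came from the source of these markers was not tested.

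A form of miR-155-5p that the 18-base match leaves out had reads in the exosome libraries alone. It differs from the mouse arm by T12C, in the letters of the reads and counted from 1 at its 5′ end, and matches the rest of the first 18 bases. There were 9, 4 and 13 such reads in exosome replicates 1 to 3, against 15, 8 and 14 reads of the exact arm. These 26 reads were 41.3% of both forms (95% Wilson interval 29.96 to 53.6%). The 12 other libraries had 0. Exact reads numbered 166 in MM3MG-Her2, 58 in the TUBO line, 51 in MM3MG and 6 in supernatant, so 0 of 166 allows a share of up to 1.81%, 0 of 58 up to 5.17% and 0 of 6 up to 50%.

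Every other single-base difference in the first 18 bases of miR-155-5p, over all libraries, came to 13 reads, with at most 2 of one kind in a group. For comparison, the commonest single difference of miR-146b-5p in exosomes was A5C, with 79 reads beside 16036 exact ones (0.493%). When the T12C reads were added to miR-155-5p, the exosome to cell difference was 0.91 (log2, adjusted p = 0.129, edgeR). The source of these reads was not tested.

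**Figure D3:**
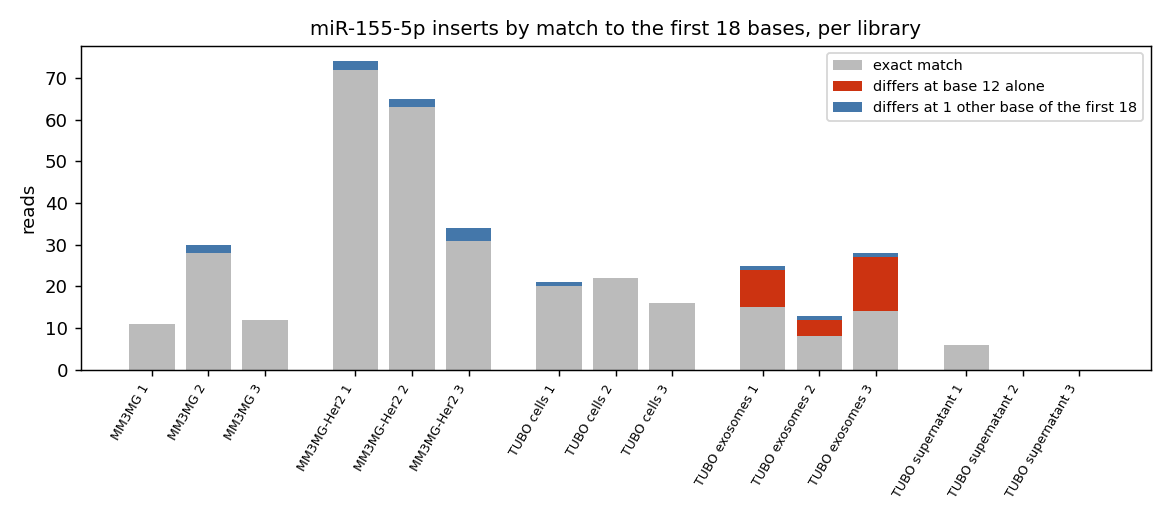
Reads of miR-155-5p in each of the 15 libraries, stacked by match to the first 18 bases of the arm: exact, different at base 12 alone, or different at 1 other base. The 3 exosome libraries hold 9, 4 and 13 reads that differ at base 12, and the other libraries hold none.

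The reads of miR-146b-5p were longer than its RefSeq arm. The 3 commonest inserts are shown with the bases beyond the arm in capitals, in the letters of the reads.
miR-146b-5p, 24 bases: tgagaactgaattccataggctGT
miR-146b-5p, 23 bases: tgagaactgaattccataggctG
miR-146b-5p, 22 bases: tgagaactgaattccataggct
The first made up 52.0% of all reads of the member, the second 34.0% and the RefSeq length 2.95%. All 3 match the Mir146b hairpin, shown here with the RefSeq arm in capitals, so that the 2 bases after it can be read.
Mir146b hairpin: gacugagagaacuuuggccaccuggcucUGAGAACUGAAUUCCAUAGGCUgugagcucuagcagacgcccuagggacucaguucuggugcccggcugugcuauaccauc

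Inserts of 24 or more bases were 46.5, 54.1 and 51.7% of miR-146b-5p reads in MM3MG (50.7 ± 3.89%, SD, n = 3) and 67.1, 67.1 and 71.6% in MM3MG-Her2 (68.6 ± 2.58%, SD, n = 3). They were 59.1 ± 0.703% in the TUBO line, 57.6 ± 4.22% in exosomes and 50.03 ± 4.74% in supernatant (SD, n = 3). The 3 lines did not overlap, with an exact two-sided permutation p of 0.1 for each pair, 0.15 after adjustment over 6 pairs, and exosomes and cells overlapped. Over all miRNA reads, inserts of 24 to 26 bases ranged from 6.99 to 9.03% in supernatant, 9.38 to 11.2% in MM3MG, 15.9 to 18.1% in MM3MG-Her2, 15.9 to 18.7% in exosomes and 23.8 to 24.7% in TUBO cells, so the length of all miRNA inserts also differed between groups. The part of that difference in the miR-146b-5p lengths was not tested. In supernatant, 0 of 2685 reads of the member were 25 or 26 bases long, and 0.383 to 0.639% of all its miRNA reads were.

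**Figure D4:**
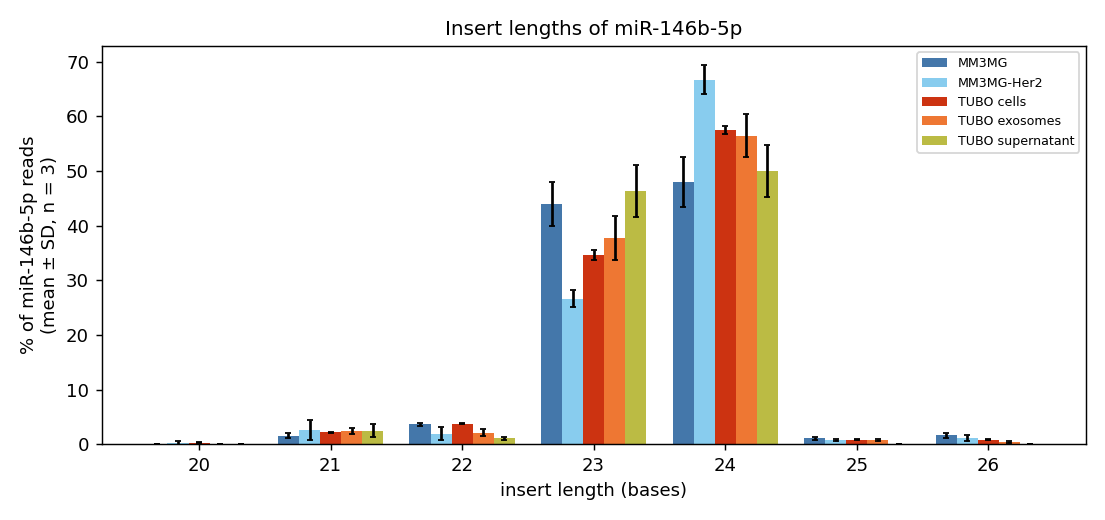
Share of miR-146b-5p reads by insert length in bases, for lengths of 20 bases and more, as mean ± SD of 3 libraries per group. Inserts of 23 and 24 bases hold most reads in every group, and 24 bases is highest in MM3MG-Her2 (66.7%).

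The 5′ end of miR-146b-5p was fixed, with 97.8 to 98.9% of reads starting at the RefSeq base in the group means, so nearly all reads kept the seed shown above. A mean of 89.5 to 93.6% matched the hairpin to the last base. For miR-146a-5p, the commonest inserts were the RefSeq arm and the same with an added T.
miR-146a-5p, 22 bases: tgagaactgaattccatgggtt
miR-146a-5p, 23 bases: tgagaactgaattccatgggttT
The 22-base form made up 54.5% of 154 reads and the 23-base form, whose last base is not in the hairpin, 13.0%. For miR-155-5p, the RefSeq arm made up 30.8% of reads, a form with 1 more hairpin base 17.6% and a form with 1 base less 17.0%.
miR-155-5p, 23 bases: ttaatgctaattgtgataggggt
miR-155-5p, 24 bases: ttaatgctaattgtgataggggtT
miR-155-5p, 22 bases: ttaatgctaattgtgatagggg
Inserts of 24 or more bases were 36.1, 34.9 and 67.7% of miR-155-5p reads in MM3MG-Her2, on 31 reads in the last of these libraries, 14.3% in MM3MG replicate 2, on 28 reads, and 22.7 and 30.0% in the TUBO cell libraries with at least 20 reads.

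The opposite arms of all 3 hairpins were nearly absent. miR-146a-3p had 0 reads in every library. miR-146b-3p had 10 reads in TUBO cells and 4 in exosomes, beside 27865 and 16036 reads of the 5p arm. It had 1 read each in MM3MG and MM3MG-Her2, beside 3410 and 425, and 0 in supernatant, beside 2685. The 5p arm was therefore 99.8 to 100% of the reads of the Mir146b hairpin in each group mean, and no pair of groups passed the test (adjusted exact permutation p = 0.6 or 1). miR-155-3p had 1 read, in MM3MG-Her2.

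The 16 other miRNAs listed as induced by NF-kB or acting on its pathway gave no single direction. In MM3MG-Her2 against MM3MG, 14 could be tested, 7 rose and 5 fell, with a median of 0.15 against 0 over all arms (log2). Of all arms tested there, 29.8% rose and 30.5% fell. miR-212-3p rose by 3.70 ± 0.49 and miR-132-3p by 2.24 ± 0.18 (adjusted p = 2.78e-06 and 3.88e-09, edgeR). Both come from the same CREB-driven cluster, and miR-132 acts on innate signalling. The rise of miR-212-3p rests on 1, 6 and 2 reads in the MM3MG libraries and 17, 36 and 18 in MM3MG-Her2. miR-21a-5p, an NF-kB and AP-1 target, rose by 0.53 ± 0.09 (adjusted p = 3.58e-05, edgeR). miR-9-5p, which lowers NFKB1, fell by 1.68 ± 0.14, and let-7i-5p, which lowers TLR4, fell by 0.93 ± 0.10 (adjusted p = 9.56e-09 and 3.54e-07, edgeR).

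In TUBO cells against MM3MG, 4 of 14 rose and 8 fell, with a median of -0.87 against 0.15 over all arms (log2), of which 43.9% rose and 40.8% fell. miR-9-5p rose by 7.80 ± 0.12 and miR-181b-5p, which lowers importin-α3 and so NF-kB entry to the nucleus, by 2.05 ± 0.14 (adjusted p = 1.78e-19 and 4.50e-10, edgeR). Against MM3MG-Her2, 3 rose and 9 fell in TUBO cells, where 33.6% of all arms rose and 41.6% fell. In exosomes against cells 1 of 12 rose and 6 fell (21.3 and 15.8% of all arms). In exosomes against supernatant 7 rose and 2 fell (39.4 and 27.6%), and in supernatant against cells 2 rose and 8 fell (33.5 and 38.9%). miR-132-3p, like miR-146a-5p, rose in supernatant against cells, by 2.63 ± 0.33 (adjusted p = 3.42e-07, edgeR). These comparisons share their libraries, so the counts are not independent of each other.

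The arms with the most similar profile were found from the 5 group means of log2(CPM + 1), centred, among 261 arms that reached 50 CPM in a group; likeness is the root mean square difference over the 5 groups, each of 3 libraries. For miR-146b-5p these were miR-195a-3p (0.46), miR-181c-3p (0.47) and miR-181c-5p (0.79), where the median arm was at 2.49. miR-195a-3p had 5.20 CPM in MM3MG and 2.71 in MM3MG-Her2, where 3 reads over the group would be 2.57 and 4.48 CPM. It reached 50 CPM only in exosomes (55.6) and supernatant (50.7). miR-181c-5p had 213 CPM in MM3MG, 106 in MM3MG-Her2 and 6744 in TUBO cells. For miR-155-5p they were miR-19a-3p (0.54), miR-21a-5p (0.65) and miR-19b-3p (0.65), with a median of 2.27, and miR-19a-3p had 1455, 3554 and 1367 CPM in MM3MG, MM3MG-Her2 and TUBO cells. The supernatant point of miR-155-5p rests on 6 reads in replicate 1 and 0 in replicates 2 and 3, which enter the mean as 0. In supernatant against cells its fit was -0.32 ± 0.80 and that of miR-21a-5p was -2.85 (log2). Their likeness at that point therefore depends on libraries without reads. For miR-146a-5p the nearest arms were miR-1843a-3p (1.33), miR-190b-5p (1.54) and miR-1249-3p (1.64), farther off than those of the other members. In MM3MG-Her2, miR-146a-5p had 0 reads and these arms had 10.5, 8.22 and 10.9 CPM. The distances therefore depend on the 1 CPM added before the logarithm.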

How the data were processed

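Per the labels' protocols, adapters were ligated to total RNA from TRIzol, the product was amplified by PCR and miRNA bands were gel-cut. Molecular identifiers are not mentioned, so intervals and floors cover counting error only. The authors deposited, for each library, distinct insert sequences with raw read counts. The trimming tool and build were not given in the sources used here. Inserts of 18 to 26 bases were matched by their first 18 bases to 1174 named GENCODE M21 hairpins and 48 more from RefSeq; arm starts came from RefSeq where listed, otherwise from the most used start. Of 6892924 reads, 4388790 were miRNA reads, and 95.4% of these began at an arm start. Counts were fitted in R 4.3.3 with edgeR 4.0.16 (TMM, filterByExpr, robust quasi-likelihood test, Benjamini-Hochberg, threshold 0.05): 9 libraries of cells (262 arms) and 9 of TUBO fractions (221 arms), each with 1 shared spread. All 3 members passed the filter in both fits. Shares were compared by exact permutation (scipy 1.17.1). On simulated counts, 34 of 37 fitted arms changed by 1 on the log2 scale were recovered in MM3MG-Her2 against MM3MG (91.9%). In exosomes against cells 22 of 38 were recovered (57.9%). False calls were 5 of 168 and 0 of 144 unchanged arms. Simulated arms that failed the filter are not in these shares, and 1 common spread was used for all arms. Alternatives were RLE and upper-quartile scaling, DESeq2 1.42.0, no filter, other match rules and lengths, 1 fit of all libraries, a replicate block and leaving out each library; 2 rules for reads of the members were added after seeing the data. The members, lists and rules for named arms (the members, their 3p arms, list members, the 3 most alike arms) were chosen with earlier results of these data known. Members, markers and lists were matched by mature name.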

Additional observations from a re-analysis of the deposited data

Results flagged for a closer look

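One result outside the counted reads was singled out because it appears in 3 libraries of 1 group and in none of the other groups. The TUBO exosome libraries held 26 reads of miR-155-5p with T12C, 28.5 ± 14.1 CPM (SD, n = 3). The same form had 0 reads in TUBO cells, where 3 reads would be 2.08 CPM over the group. As background, the human miR-155-5p carries this base at this place. The medium held fetal calf serum, and the calf arm was not compared with these reads. The source of the reads was not tested.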

How the results depend on the processing

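Of 18 differences (3 members in 6 comparisons), 11 passed the threshold, and 10 of these kept direction and call under every alternative run; the eleventh was miR-146b-5p in exosomes against supernatant. That call was lost under RLE (0.45), upper-quartile scaling (0.26), DESeq2 (0.53), a 20-base match (0.0171), inserts of 20 to 24 bases (0.0560) and 1 fit of all libraries (0.36), and without single libraries it ranged from 0.0536 to 0.66. In supernatant against cells miR-146b-5p passed under RLE (-0.55), DESeq2 (-0.64) and no filter (-0.52), turned to 7.6e-07 under upper-quartile scaling and ranged from -0.53 to -0.11 without single libraries. Differences that were not called changed sign: miR-155-5p in TUBO cells against MM3MG under RLE (-0.14), upper quartile (-0.21), DESeq2 (-0.18), a 20-base match (-0.44), 2 later differences (-0.53), inserts of 20 to 24 bases (-0.50) and 1 fit (-0.29), with -0.67 to 0.46 without single libraries; miR-146b-5p in exosomes against cells under RLE (-0.10), DESeq2 (-0.11), a 20-base match (-0.15) and inserts of 20 to 24 bases (-0.10), with -0.0845 to 0.0881; miR-155-5p there under DESeq2 (-0.0263), a 20-base match (-0.0660) and inserts of 20 to 24 bases (-0.14), with -0.12 to 0.33; and miR-155-5p in exosomes against supernatant with inserts of 20 to 24 bases (-0.0784), with -0.10 to 6.70, and in supernatant against cells with -6.63 to 0.33, the extremes being fits against 0 reads. miR-146a-5p in exosomes against cells ranged from 0.82 to 1.60 without single libraries and from 0.97 to 1.64 under the other alternatives. The cause was not tested. Scaling moved the median of all arms in TUBO cells against MM3MG from 0.15 to -0.21 (upper quartile), and in exosomes against cells the split of calls from 47 higher and 35 lower to 59 and 21 (upper quartile) or 43 and 50 (RLE); in TUBO cells against MM3MG-Her2 it went from 88 and 109 to 70 and 137 (upper quartile). Counts of called arms and list members stayed within 1.5 times. The deviations of same-numbered libraries correlated at 0.0326, 0.276 and 0.366 between exosomes and supernatant, not all over 0.1, and at -0.17 to 0.08 in the other comparisons, so the numbers were not taken as pairs; the replicate block gave 158, 219, 195, 85, 143 and 151 called arms against 158, 222, 197, 82, 148 and 160, and changed no call of a member. Depth limits miR-146a-5p and miR-155-5p, which rest on 0 to 30 and 0 to 72 reads per library.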
